A study of Mus musculus with 9 samples.

Results

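The transcriptional response to cytosolic DNA was set directly against the response to bacterial lipopolysaccharide (LPS) in wild-type mouse embryonic fibroblasts. The comparison used 2 of the 9 arrays of the series, the wild-type array after dsDNA and the wild-type array after LPS, without the mock array in the difference. A gene's value was that of the probe set, among those with a single gene symbol, with the highest mean over the 9 arrays, and a gene was kept where the brighter of the 2 arrays reached the overall median of the table (4.44 on the log2 scale). This kept 13842 of 22180 genes. At the edge of this limit, Olfr70 was kept with 4.4444 on its brighter array and Oxct2b left out with 4.4442. The difference is log2 signal with dsDNA minus log2 signal with LPS, so that 1 is a 2-fold difference.

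Embryonic fibroblasts were isolated from 3 kinds of mice: WT, labelled STING+/+; SKO, labelled STING-/-; and MyD88KO, labelled MyD88-/- (the design text and growth protocol write MyD99KO). Cells of each genotype were transfected with dsDNA (ISD, interferon stimulatory DNA, in the sample titles) for 6 h, treated with LPS for 6 h, or left untreated as mock. The dose, the transfection reagent, and the strain and age of the embryos are not stated in the labels. Since the mock cells were untreated, an effect of transfection itself cannot be told apart from one of dsDNA. There was 1 array for each genotype and treatment, so that the wild-type difference has no replicate check, and each group may be 1 culture.

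Cytosolic DNA is sensed by cGAS, whose product, the cyclic dinucleotide cGAMP, activates STING, the kinase TBK1 and the transcription factor IRF3. This leads to interferon beta, which acts back on the cells through its receptor to switch on interferon-stimulated genes. LPS is recognised by TLR4, with the co-receptors CD14 and MD-2, and signals through the adaptor MyD88 to NF-kB and inflammatory cytokines and through the adaptor TRIF (Ticam1) to IRF3. Fibroblasts are known to use both routes.

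The arrays' medians lay between 4.42 and 4.46. Sting1, the gene targeted in SKO cells, read 8.54, 8.57 and 8.54 on the wild-type mock, dsDNA and LPS arrays and 4.54, 4.60 and 3.78 on the SKO arrays, so these labels and levels match. Myd88 was still measured in the cells labelled MyD88-/- (6.99 to 8.21), and whether its probe set covers the deleted part of the gene is not stated in the labels. Fibroblast markers were nearly level between the wild-type dsDNA and LPS arrays: the median difference of 14 markers was -0.04, none of them differed 2-fold, and their summed signal was 14.58 with dsDNA and 14.62 with LPS on the log2 scale. Type I collagen Col1a1 read 11.75 and 11.79, and the intermediate filament gene Vim 12.66 and 12.70. Lumican (Lum) was dim, at 3.72 and 3.02.

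Interferon-stimulated genes, interferon beta and the cytokine gene Il33 were higher with dsDNA than with LPS in the wild-type cells, whereas interleukin 1, several neutrophil-attracting chemokines, IL-12 p40 and TNF were higher with LPS. The large majority of genes did not separate the treatments: the median difference over the genes kept was 0.00, and 93.0% of them differed by less than 0.5. At least 2-fold, 213 of 13842 genes (1.54%) were higher with dsDNA and 57 (0.412%) higher with LPS. At least 4-fold, 55 genes (0.397%) were higher with dsDNA and 12 (0.0867%) higher with LPS. The genes past 2-fold are called the dsDNA side and the LPS side here. Just inside the limit stood Sall1 (1.0003) and Serpinb2 (-1.003), and just outside it Mir1907 (0.999) and Ebi3 (-0.997).

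**Figure D1:**
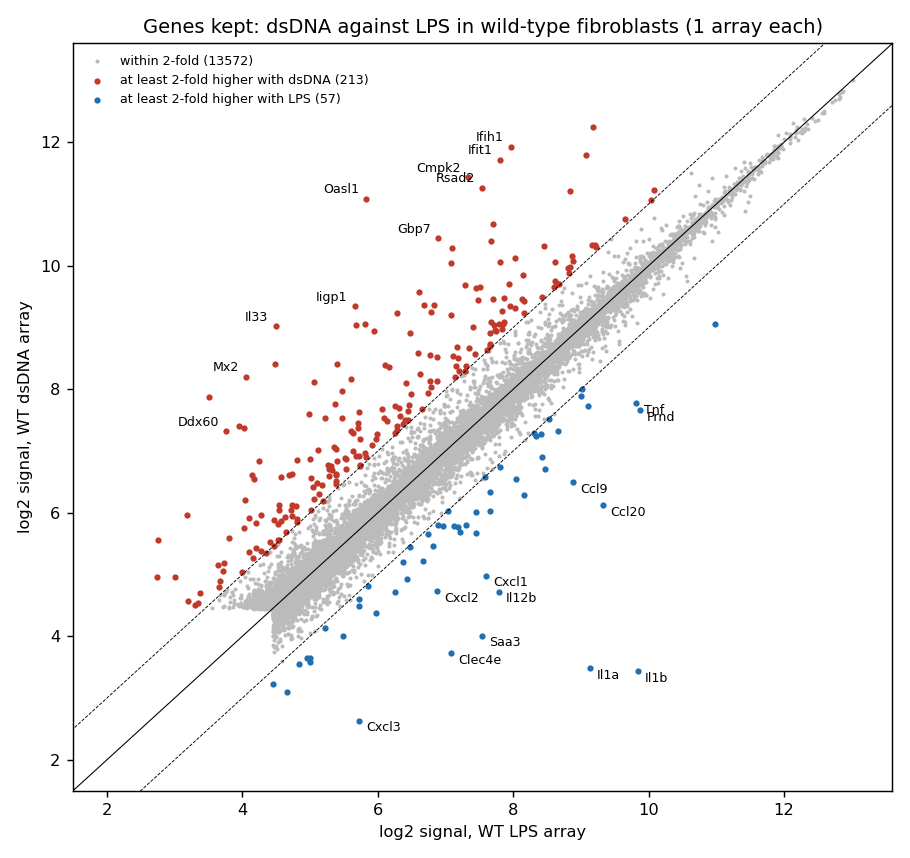
Log2 signal of the 13842 genes kept on the wild-type LPS array (horizontal axis) and the wild-type dsDNA array (vertical axis); each point is 1 gene on 1 array a treatment, the solid line is equality and the dashed lines are 2-fold. Red marks the 213 genes at least 2-fold higher with dsDNA, blue the 57 at least 2-fold higher with LPS, and the labelled genes are among the 12 with the largest difference on each side.

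With no replicates, a test was possible only by borrowing arrays of the other genotypes. A limma model of all 9 arrays shared the dsDNA response between WT and MyD88KO cells and the LPS response between WT and SKO cells, and tested the shared dsDNA response minus the shared LPS response. Of 14737 genes tested, 368 (2.5%) were higher with dsDNA and 86 (0.584%) higher with LPS at a Benjamini-Hochberg adjusted p under 0.05. The test rests on 2 residual degrees of freedom and on single arrays: without the wild-type LPS array limma called 0 genes in both directions (1220 had an unadjusted p under 0.05), 17 and 6 when the SKO mock array was left out, 16 and 5 when the SKO LPS array was, 134 and 8 for the MyD88KO mock array, 129 and 10 for the MyD88KO dsDNA array and 207 and 26 for the wild-type dsDNA array. An adjusted p below therefore speaks for this model and not for repeated wild-type cultures. Each gene named as passing lost its call in at least 1 of 15 settings of the model, the one given included. Leaving out the SKO dsDNA or the MyD88KO LPS array could not change an estimate, because each had its own term. A pass in those settings, or in the one given, is therefore no separate support. Of the dsDNA side, 179 of 213 genes passed in the same direction, and of the LPS side 10 of 57; the wild-type arrays enter both the counts and the fit. On the dimmer of the 2 arrays, 34 genes of the dsDNA side and 14 of the LPS side were under the median of all values, where a log2 difference can understate the change.

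The largest difference toward dsDNA was that of Oasl1, an oligoadenylate synthetase-like gene of the antiviral response. It read 5.13 on the wild-type mock array, 11.09 with dsDNA and 5.83 with LPS, a difference of 5.26. The LPS array was 0.70 above mock and the dsDNA array 5.96. The limma estimate was 5.20 ± 0.18 (SE; adjusted p = 0.0003). The second was Il33, an alarmin cytokine of the interleukin 1 family that is held in the nucleus. Il33 read 4.53 with mock, 9.02 with dsDNA and 4.49 with LPS, a difference of 4.53 (limma 4.89 ± 0.31, adjusted p = 0.00156). Here LPS stood beside mock, and dsDNA far above both.

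Other genes of the dsDNA side were also above mock with LPS, though at a lower level than with dsDNA. Ifit1, which binds foreign RNA ends, read 4.51 with mock, 11.71 with dsDNA and 7.80 with LPS (difference 3.92; limma 3.23 ± 0.50, adjusted p = 0.0264). The Ifit1 estimate ranged from 1.81 to 4.04 over the 15 settings and passed in 8. Cmpk2, a mitochondrial nucleotide kinase that lies next to the antiviral gene Rsad2, read 3.98, 11.43 and 7.33 (difference 4.10; adjusted p = 0.00118). Rsad2 itself, which encodes viperin, read 4.97, 11.27 and 7.54 (difference 3.73; adjusted p = 0.00818). In each of the 3 the order was dsDNA, LPS, mock. The remaining genes among the 12 largest were F830016B08Rik and Iigp1, immunity-related GTPases (4.37 and 3.68), the antiviral dynamin-like GTPase gene Mx2 (4.15), the RNA sensor gene Ifih1, which encodes MDA5 (3.96), Gm4841 (3.93), the helicase gene Ddx60 (3.57) and the guanylate-binding protein gene Gbp7 (3.55). All 12 passed limma, with the adjusted p of Ifit1 the highest among them.

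The largest difference toward LPS was that of Il1b, the secreted pyrogenic cytokine interleukin 1 beta. It read 3.78 with mock, 3.44 with dsDNA and 9.84 with LPS, a difference of -6.39 (limma -5.53 ± 0.68 SE, adjusted p = 0.0111). Its neighbour Il1a read 3.18, 3.48 and 9.13, a difference of -5.65 (limma -4.75 ± 0.81, adjusted p = 0.0354). Over the 15 settings the Il1b estimate ranged from -6.47 to -3.63 and passed in 9, and that of Il1a ranged from -5.87 to -2.52 and passed in 7. Both were under the median of all values on the mock and dsDNA arrays and bright on the LPS array only. Clec4e, the C-type lectin receptor Mincle, read 3.57, 3.73 and 7.07 (difference -3.35; limma -2.95 ± 0.35, adjusted p = 0.00976).

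The other 9 of the 12 genes with the largest difference toward LPS missed the limma threshold. They were the acute-phase gene Saa3 (-3.53), the chemokine genes Ccl20 (-3.20), Cxcl3 (-3.09), Cxcl1 (-2.62), Ccl9 (-2.38) and Cxcl2 (-2.13), Il12b, which encodes the p40 subunit shared by IL-12 and IL-23 (-3.06), Prnd (-2.20), and Tnf (-2.05). Saa3 differed in its starting level between genotypes. It read 4.18 with mock, 4.01 with dsDNA and 7.54 with LPS in WT cells, but 7.88, 7.89 and 8.25 in SKO cells, where it was high before treatment (limma -2.27 ± 0.77, adjusted p = 0.229).

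**Figure D2:**
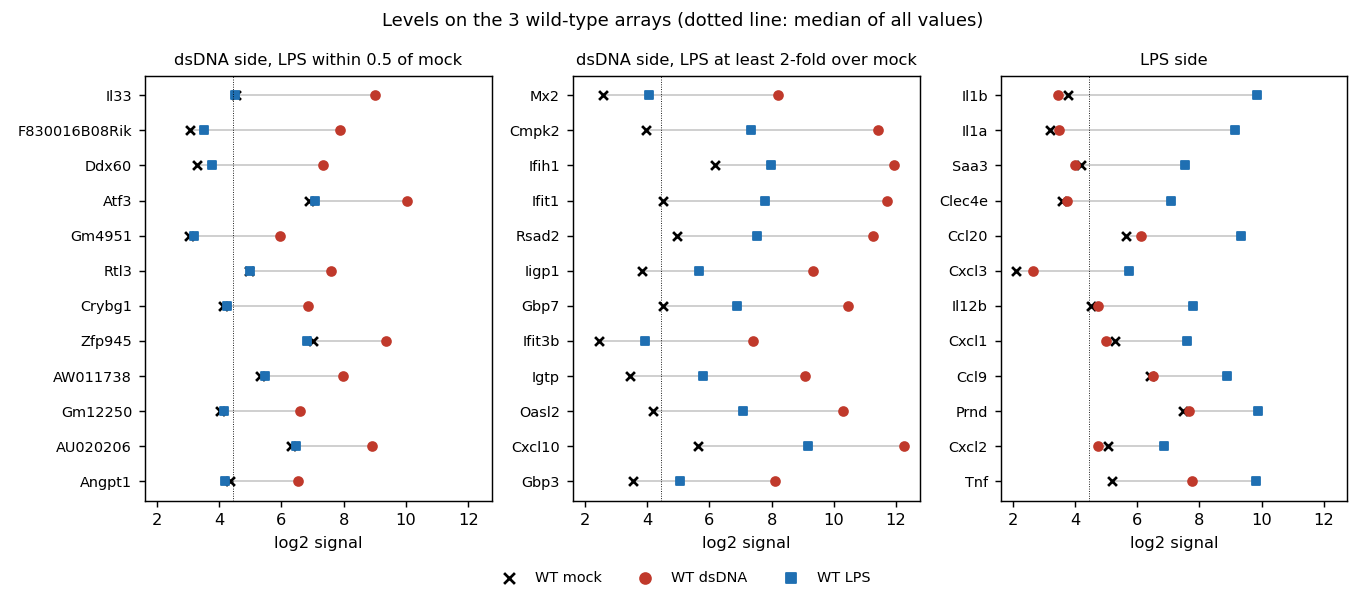
Log2 signal (horizontal axis) on the 3 wild-type arrays, mock (cross), dsDNA (red circle) and LPS (blue square), 1 array each, for the 12 genes with the largest difference in each of 3 sets; the dotted line is the median of all values, 4.44. In the left panel LPS lies beside mock, in the middle panel LPS lies between mock and dsDNA, and in the right panel LPS stands alone on the right for most genes, Tnf being the one of the 12 that was also at least 2-fold above mock with dsDNA.

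Promoter sequence was looked at for these extremes, since interferon-stimulated genes and NF-kB targets are known for different DNA elements. RefSeq promoter windows (GRCm38.p6, 250 bases before to 50 after the annotated start) were searched on both strands for GAAANNGAAA, a core of the interferon-stimulated response element, and for GGGNNNTTCC, a kB pattern. Of 32851 windows in the table, 3.44% held the first and 5.56% the second, 55 held both, and in 3 of these the matches overlapped. Of the 12 genes with the largest difference toward dsDNA, only 8 had a window, under the 80% needed for a share; Ifih1, Ifit1, Rsad2, Ddx60 and Gbp7 held the first pattern. All 12 genes at the LPS end had one; 1 (Saa3) held the first pattern and 6 (Ccl20, Cxcl3, Cxcl1, Ccl9, Prnd and Cxcl2) the second. Oasl1, Il33, Cmpk2, Il1b, Il1a, Clec4e, Il12b and Tnf held neither, which says only that these letters are not in these windows. Only 160 of the 213 genes of the dsDNA side and 45 of the 57 of the LPS side had a window, also under the 80% needed, so that a comparison of the sides is void. Among those with a window, 40 of the 160 held the first pattern and 18 the second, and 4 and 8 of the 45. Of all 13842 genes kept, 10805 had a window, and 3.55% of these held the first pattern and 7.16% the second. The kB pattern was found on both sides, and 6 of the 8 genes with it on the LPS side were among its 12 extremes. The following 60-base stretches upstream of the start are written on the gene's strand with the match nearest to the start in capitals; they belong to the 4 genes with the largest difference on each side whose match lay wholly before the start (the dsDNA side with the first pattern, the LPS side with the second).
Ifit1: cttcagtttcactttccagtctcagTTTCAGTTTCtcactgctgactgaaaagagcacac
Rsad2: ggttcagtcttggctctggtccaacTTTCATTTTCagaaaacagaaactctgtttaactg
Ddx60: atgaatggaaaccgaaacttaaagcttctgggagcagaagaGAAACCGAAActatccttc
Gbp7: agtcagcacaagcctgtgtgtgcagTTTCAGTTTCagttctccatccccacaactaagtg
Ccl20: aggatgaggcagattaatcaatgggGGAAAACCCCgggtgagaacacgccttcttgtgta
Cxcl3: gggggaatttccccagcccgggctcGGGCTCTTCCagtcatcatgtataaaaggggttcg
Cxcl1: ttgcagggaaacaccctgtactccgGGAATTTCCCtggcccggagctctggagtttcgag
Ccl9: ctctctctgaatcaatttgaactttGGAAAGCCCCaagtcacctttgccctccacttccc

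Apart from Ddx60 and Cxcl3, the capitals in these stretches are the reverse complement of the pattern. The Ifit1 stretch is chr19:34640779-34640838 (plus strand), with the match ending 75 bases before the start, and Ifit1 and Ddx60 each held 2 such matches upstream. The Rsad2 stretch is chr12:26456538-26456597 (minus strand), 110 bases before it. The Ddx60 stretch is chr8:61928027-61928086 (plus), 9 bases before it, and that of Gbp7 chr3:142530258-142530317 (plus), 43 bases before it. On the LPS side the stretches all come from chemokine genes: Ccl20 at chr1:83116661-83116720 (plus, 70 bases before the start), Cxcl3 at chr5:90786026-90786085 (plus, 40 bases), Cxcl1 at chr5:90891150-90891209 (plus, 60 bases) and Ccl9 at chr11:83578637-83578696 (minus, 25 bases). Cxcl3 and Cxcl1 held 3 matches each, counted on both strands. For each gene these include overlapping matches on opposite strands, so the 3 matches are not 3 separate sites.

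Interferon genes themselves came first in the pathway. Ifnb1, interferon beta, read 2.74 with mock, 4.96 with dsDNA and 2.73 with LPS in WT cells (difference 2.23; limma 2.32 ± 0.20 SE, adjusted p = 0.00405). Only the dsDNA array was above mock, and it was close to the median of all values. With an offset of 32 on the linear scale, which shrinks differences of dim genes, the difference was 0.71 and no longer 2-fold. Of 18 measured type I and III interferon genes, Ifnb1 was the 1 gene on the dsDNA side and 0 were on the LPS side, with a list median of 0.14. List medians here are over all measured members, dim ones included, because a filter on the brighter array favours members that differ. Ifna4, an early alpha interferon, read 6.70, 7.32 and 6.48 (difference 0.84, adjusted p = 0.0523).

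Among the gene lists, that of antiviral effectors, also the longest, held the most genes of the dsDNA side. Of 43 measured, 32 were on it and 0 on the LPS side; the list median was 1.52, against 0.00 for all genes kept, and limma called 31 of the 41 tested, all higher with dsDNA. The Ifit genes ranged from Ifit1 through Ifit3b (3.45) and Ifit2 (3.36) down to the gene listed as Ifit3, which was level (5.94 with dsDNA and 5.99 with LPS, difference -0.05). The OAS genes, whose enzymes make the activator of RNase L, included Oasl2 (3.19), Oas1b (2.56), Oas1g (2.16) and Oas2 (1.04). In the ISG15 system, the ubiquitin-like modifier Isg15 read 5.33, 9.69 and 7.29 with mock, dsDNA and LPS (difference 2.40), and the protease that removes it, Usp18, read 5.05, 11.20 and 8.83 (difference 2.37). The ligase gene Herc6 was also on the dsDNA side (3.01), as were Uba7 (1.72) and Ube2l6 (1.48), which encode the activating and conjugating enzymes of ISG15. Members that hardly separated the treatments were Ifitm3, which blocks viral entry (11.42 and 10.94, difference 0.48), and Ifitm2 (0.10).

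Interferon-inducible GTPases, which attack membranes of intracellular pathogens, were on the dsDNA side in 9 of 15 measured genes and on the LPS side in 0. The list median was 1.45, and limma called 8 of the 11 tested, all higher with dsDNA. Igtp read 3.46 with mock, 9.06 with dsDNA and 5.80 with LPS (3.26), Gbp3 read 3.53, 8.11 and 5.06 (3.05), and Irgm2 read 3.86, 9.24 and 6.28 (2.95). The 5 members Gbp4, Gbp11, Gbp2b, Gbp6 and Gbp8 were too dim to be kept. These genes, like the Ifit, Oas and Ifi200 genes, belong to families of close copies whose probes can read one another.

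Genes of cytosolic nucleic acid sensing were on the dsDNA side in 8 of 21 measured, with 0 on the LPS side (median 0.83; limma 5 of 17). The RNA sensor Ifih1 read 6.17, 11.93 and 7.97 with mock, dsDNA and LPS, and Ddx58, which encodes RIG-I, read 6.81, 9.45 and 8.12 (difference 1.33). The necroptosis effector Mlkl read 5.97, 8.58 and 6.59 (1.98), while its kinase Ripk3 was level (-0.04). The DNA sensor Cgas read 4.19, 5.16 and 4.30, a difference of 0.86 that did not pass limma (adjusted p = 0.0538). The core signalling genes downstream did not separate the treatments: Sting1 differed by 0.02, Tbk1 by 0.41, Mavs by -0.06 and Irf3 by -0.18.

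Among Toll-like receptor genes and adaptors, 2 of 22 measured were on the dsDNA side and 1 on the LPS side (median -0.03; limma 2 and 1 of 18 tested). The endosomal RNA receptor Tlr3 read 5.62 with mock, 9.25 with dsDNA and 6.79 with LPS (2.47; limma 2.88 ± 0.44, adjusted p = 0.0252). The adaptor Myd88 itself was on the dsDNA side, at 7.52, 8.95 and 7.73 (1.22; limma 1.12 ± 0.10, adjusted p = 0.00428). The LPS co-receptor Cd14 was on the LPS side, at 5.95, 5.79 and 7.31 (-1.51; limma -1.30 ± 0.22, adjusted p = 0.0344, with a range of -1.57 to -0.76 over the settings and a pass in 7). The receptor Tlr4 (-0.18), its partner MD-2, encoded by Ly96 (0.00), and Ticam1 (-0.07) did not separate the treatments.

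Transcription factors of the interferon pathway were on the dsDNA side in 5 of 17 measured genes (0 on the LPS side, median 0.46; limma 7 of 14). Stat2, part of the factor that binds the response element searched above, read 5.76, 10.05 and 7.80 with mock, dsDNA and LPS (2.25). Irf7, the amplifier of alpha interferon, read 5.63, 9.44 and 7.48 (1.97), and Irf1 5.08, 7.54 and 5.47 (2.06), with LPS closer to mock for Irf1 than for Irf7. Of the PARP and TRIM genes, 10 of 17 were on the dsDNA side and 0 on the LPS side (median 1.52; limma 9 of 15), led by the ADP-ribosyltransferase gene Parp14 (2.97), the antibody receptor Trim21 (2.69) and Parp9 (2.28). The 7 Schlafen genes had none on a side; Slfn5 differed by 0.88.

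Antigen presentation by MHC class I was on the dsDNA side in 6 of 20 measured genes and on the LPS side in 0 (median 0.74; limma 6 of 19 tested, 3 of them under 2-fold). The peptide transporter gene Tap1 read 6.16, 9.20 and 7.08 with mock, dsDNA and LPS (2.12), and the class I transactivator Nlrc5 4.26, 5.89 and 4.47 (1.42). The abundant light chain B2m differed by only 0.17. The inhibitory ligand Cd274 (PD-L1) read 5.28, 10.67 and 7.70 (2.96; limma 3.11 ± 0.14, adjusted p = 0.000553).

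Chemokine genes were found on both sides. Cxcl10, an interferon-induced chemokine that draws activated T cells and NK cells, read 5.63 with mock, 12.25 with dsDNA and 9.18 with LPS (3.07; limma 2.76 ± 0.24, adjusted p = 0.00405). Both arrays stood far above mock for this gene, dsDNA the further. The related chemokine genes Cxcl11 (2.32) and Cxcl9 (1.89, adjusted p = 0.0794) were on the same side.

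Of 20 measured chemokine and growth factor genes that attract or mobilise neutrophils and monocytes, 8 were on the LPS side. On the dsDNA side were 3, and the list median was -0.20. Of the 18 tested, however, limma called 2 higher with dsDNA and 0 higher with LPS. At an unadjusted limma p under 0.05, 6 of the 18 were higher with LPS. The neutrophil chemokine Cxcl1 read 5.27 with mock, 4.98 with dsDNA and 7.60 with LPS in WT cells, 5.28, 5.27 and 5.0 in MyD88KO cells, and 6.69, 6.84 and 7.41 in SKO cells (limma -1.99 ± 0.41, adjusted p = 0.0605). In WT cells only the LPS array was high, in MyD88KO cells the 3 arrays were level, and in SKO cells all 3 were high. Ccl20, which draws CCR6-bearing cells, read 5.64, 6.12 and 9.32 in WT cells. The 3 on the dsDNA side were monocyte attractants Ccl12 (1.69), Cx3cl1 (1.44) and Ccl7 (1.15). Ccl2, the main monocyte chemokine, was high with both (7.37, 11.59 and 11.27; difference 0.32).

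**Figure D3:**
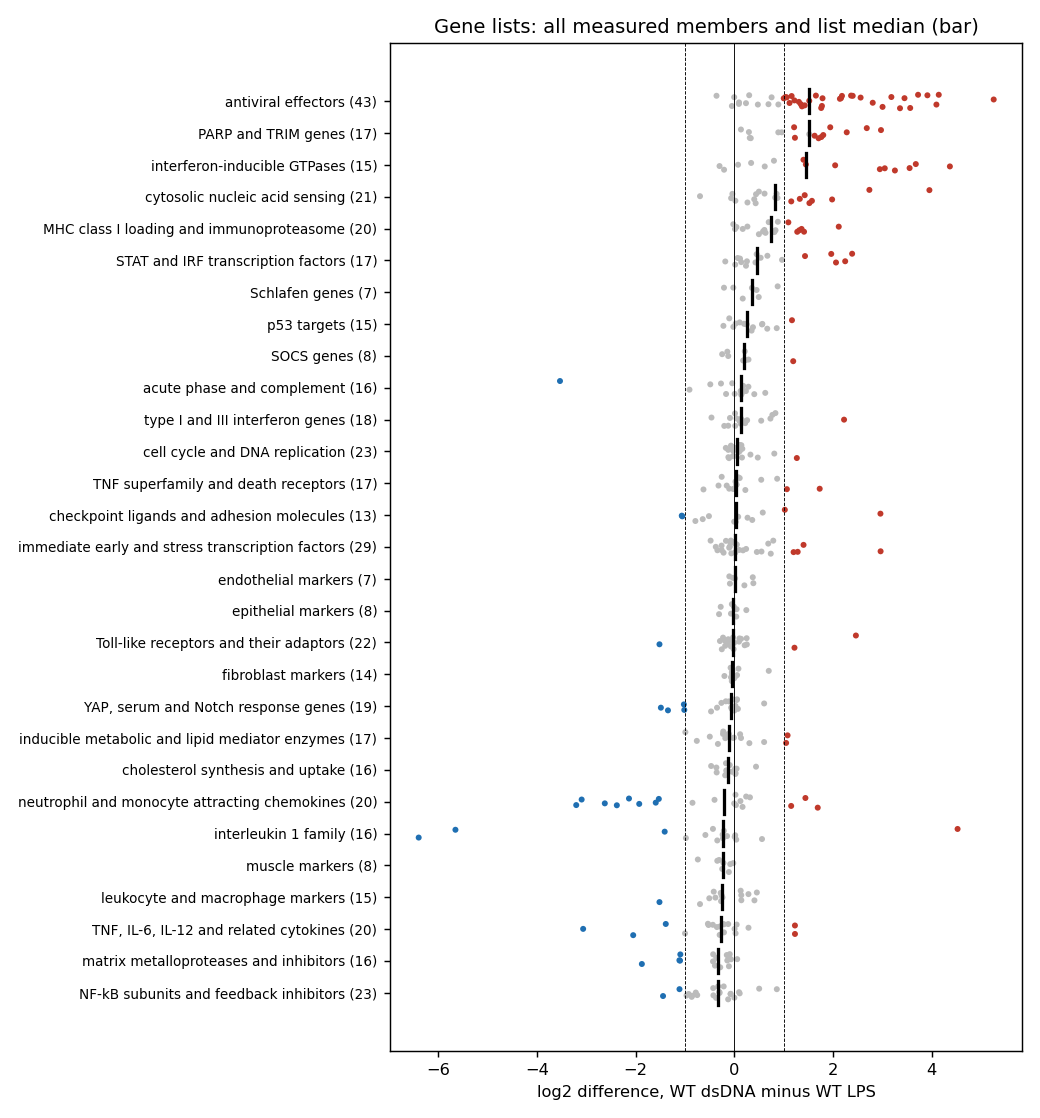
Log2 difference, wild-type dsDNA minus wild-type LPS (horizontal axis), of every measured member (points) of the 29 gene lists and the list median (black bar); red and blue mark members at least 2-fold higher with dsDNA and with LPS, and dashed lines mark 2-fold. The antiviral effectors, the PARP and TRIM genes and the interferon-inducible GTPases lie furthest right, with medians of 1.52, 1.52 and 1.45 over all measured members, and the NF-kB list lies among those left of 0, with a median of -0.33.

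Of 16 measured genes of the interleukin 1 family, Il33 was on the dsDNA side, and Il1b, Il1a and the inflammasome gene Nlrp3 were on the LPS side (median -0.23). Nlrp3 read 3.96, 3.59 and 4.997 with mock, dsDNA and LPS (-1.41; adjusted p = 0.104). The receptor Il1r1 read 7.07, 6.55 and 7.53 (-0.98), short of 2-fold, and was higher with LPS in limma (-0.94 ± 0.14, adjusted p = 0.0245). Among TNF, IL-6, IL-12 and related cytokines, 3 of 20 were on the LPS side (Tnf, Il12b and Tslp) and 2 on the dsDNA side, Il15 (1.23) and its receptor chain Il15ra (1.23), which serve NK and memory T cells. Tnf read 5.20 with mock, 7.77 with dsDNA and 9.82 with LPS, so both arrays were above mock (limma -1.29 ± 0.71, adjusted p = 0.512). Il6 was nearly equal with both agents, at 4.77, 7.60 and 7.31 (difference 0.29; adjusted p = 0.344).

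NF-kB subunits and feedback inhibitors leaned toward LPS with a median of -0.33, and 2 of 23 passed 2-fold, the RNase gene Zc3h12a (-1.44) and Tnfaip2 (-1.11); limma called 1 gene in each direction, Peli1 toward dsDNA and Bcl2a1a toward LPS. The inhibitors Nfkbia, at 7.62, 9.01 and 9.43 with mock, dsDNA and LPS, and Tnfaip3, at 7.22, 8.55 and 8.45, were above mock with both agents and close to each other. They belong to 73 genes at least 2-fold above the shared mock array with both agents, of which 50 were on the dsDNA side, 4 on the LPS side (Tnf, Ccl3, Tslp and Mmp13), and 11 differed by less than 0.5: Lif, Nfkbia, Ptx3, Tnfaip3, Slc7a2, Ccl4, Slfn2, Cd69, Il6, Ccl2 and Arhgef3.

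Some secreted matrix proteases were higher with LPS. Of 16 metalloprotease and inhibitor genes, 4 were on the LPS side and 0 on the dsDNA side (median -0.32), although limma called 0 of the 15 tested in either direction (6 had an unadjusted p under 0.05, all of them higher with LPS). The stromelysin gene Mmp10 read 6.76, 6.29 and 8.17 with mock, dsDNA and LPS (-1.87; adjusted p = 0.0659), the gelatinase gene Mmp9 7.68, 7.89 and 8.998 (-1.11), the stromelysin gene Mmp3 5.94, 5.65 and 6.74 (-1.09), and the collagenase gene Mmp13 4.60, 5.79 and 6.89 (-1.10). The abundant gelatinase Mmp2 (-0.09) and inhibitors Timp1 (-0.11) and Timp2 (-0.06) were level. The endothelial selectin genes Sele (-1.05) and Selp (-1.06) were also on the LPS side.

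The LPS side held a second, smaller kind of gene, at its mock level with LPS and below it with dsDNA. Of its 57 genes, 39 were at least 2-fold above mock with LPS, and 5 were at least 2-fold below mock with dsDNA: Edn1, Trib2, Jag1, Adm and Meox1. Edn1, the vasoconstrictor endothelin 1, read 8.24 with mock, 6.55 with dsDNA and 8.04 with LPS (limma -1.39 ± 0.14, adjusted p = 0.00563). Trib2, a pseudokinase, read 7.23, 5.78 and 7.12 (limma -1.76 ± 0.30, adjusted p = 0.036), and the Notch ligand Jag1 9.02, 8.0 and 9.02 (limma -1.36 ± 0.25, adjusted p = 0.0421). Trib2 and Jag1 each passed in 8 of the 15 settings. For each of these the dsDNA array was the low one. Of the 19 genes in the list of YAP, serum and Notch response genes, these 3 and the vasodilator peptide gene Adm (-1.01) were on the LPS side and 0 on the dsDNA side; Ccn1, Ccn2 and Ankrd1, well-known YAP targets, differed by -0.03, -0.05 and -0.17. The list was drawn up with earlier results of these data known.

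Other genes of the LPS side, named after their values were seen and from no list, were Clec4d (-1.13), Clec4a1 (-1.35), the inhibitory Fc receptor gene Fcgr2b (-1.53), Plek (-1.53), Igsf6 (-1.78) and Gpr84 (-1.40). Of the list of 15 macrophage and leukocyte markers, Cd14 was the 1 on the LPS side and 0 were on the dsDNA side, 6 were higher and 9 lower with dsDNA, the median difference was -0.26, and their summed signal was 9.93 with mock, 9.84 with dsDNA and 10.05 with LPS on the log2 scale. The pan-leukocyte gene Ptprc read 4.37, 4.87 and 5.25 with mock, dsDNA and LPS, the macrophage gene Adgre1 5.18, 4.84 and 5.54, and the macrophage growth factor receptor Csf1r 6.47, 6.37 and 5.96. The part of other cells in these differences was not tested. In bulk RNA a smaller number of cells of a type and less RNA per cell cannot be told apart. Epithelial, endothelial and muscle markers (8, 7 and 8 measured) had 0 genes on either side, with medians of -0.03, 0.02 and -0.23.

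Genes in none of the lists made up 121 of the 213 genes of the dsDNA side and 29 of the 57 of the LPS side. Among genes outside the interferon and inflammatory lists, the stress factor Atf3 read 6.87 with mock, 10.04 with dsDNA and 7.07 with LPS (2.97; limma 2.82 ± 0.14, adjusted p = 0.000764), and the immediate early genes Csrnp1 (1.41), Fosb (1.29) and Egr1 (1.20) were on the same side; of 29 such factors 4 were on the dsDNA side and 0 on the LPS side, and limma called 7. Cyclin E1 (Ccne1) read 7.94, 9.05 and 7.78 (1.27; adjusted p = 0.00156), the 1 gene of 23 cell cycle genes past 2-fold, and the proliferation marker Mki67 differed by 0.10. The DNA damage kinase gene Atm read 6.15, 8.36 and 6.17 (2.20), and the p53 target Bbc3, which encodes PUMA, differed by 1.17, the 1 of 15 p53 targets past 2-fold (adjusted p = 0.0878). limma called 3 of the 15 higher with dsDNA, among them Trp53inp1 (0.86; adjusted p = 0.0153). The angiopoietin gene Angpt1 read 4.33, 6.54 and 4.17 (2.37). In each of these LPS stood beside mock. The remaining lists held few genes on a side: of 8 SOCS genes the interferon feedback inhibitor Socs1 (1.20), of 17 metabolic enzyme genes Ch25h (1.08) and Nampt (1.05), and of 17 TNF superfamily and death genes Casp12 (1.73) and the decoy receptor Tnfrsf11b (1.07), all toward dsDNA. Of 16 acute-phase and complement genes Saa3 alone was on a side, and of 16 cholesterol genes 0 were.

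The dsDNA side thus held genes that were above mock with LPS too and genes that were not. Of the 213 genes, 193 were at least 2-fold above mock with dsDNA, 50 also with LPS, and 133 were within 0.5 of mock with LPS; both counts use the 1 shared mock array. Of the 50 genes above mock with both, 35 belonged to the 6 interferon-related lists (antiviral effectors, GTPases, nucleic acid sensing, STAT and IRF factors, PARP and TRIM genes, and MHC class I), and 10 to no list. Of the 133 genes near mock with LPS, 16 belonged to those lists and 100 to no list. The median wild-type difference was 2.27 in the first class and 1.25 in the second.

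The classes also differed on the arrays of the other genotypes, which share no array with the wild-type difference. In SKO cells, which lack STING, dsDNA minus LPS reached 2-fold toward dsDNA in 0 of 13989 genes (0%) and toward LPS in 65 (0.465%). Of the 50 genes above mock with both agents in WT cells, 40 were at least 2-fold higher with LPS than with dsDNA in SKO cells, and of the 133 near mock with LPS only 2 were. The median SKO difference was -1.53 in the first class and -0.04 in the second. It ranged from -2.85 to 0 in the first class and from -1.72 to 0.99 in the second, with Fosb the highest. Against SKO mock, 16 of the 50 were at least 2-fold higher after dsDNA transfection and 0 of the 133, beside 20 of 13965 genes (0.143%) in all; the part of transfection itself in this was not tested. The split into classes was made after the values were seen. It was made by the wild-type LPS level, so that LPS above dsDNA in SKO cells follows in part from the definition and is no separate support for the split.

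Ifit1 and Il33 show the 2 classes gene by gene. Ifit1 read 3.88, 6.70 and 9.31 with mock, dsDNA and LPS in SKO cells and 4.63, 11.91 and 7.75 in MyD88KO cells. LPS was thus the higher of the treatments in SKO cells, and dsDNA in the others. Il33 read 4.38, 4.50 and 4.54 in SKO cells, level on all arrays, and 4.14, 9.92 and 3.89 in MyD88KO cells. Cxcl10 followed Ifit1, at 5.38, 7.25 and 9.95 in SKO cells and 5.82, 12.53 and 8.81 in MyD88KO cells. The stress factor Atf3 followed Il33 more closely, at 6.90, 7.49 and 7.09 in SKO cells and 6.47, 9.17 and 6.78 in MyD88KO cells.

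In MyD88KO cells, which keep STING, the dsDNA side was largely retained. There, 391 of 13839 genes (2.83%) were at least 2-fold higher with dsDNA and 76 (0.549%) higher with LPS. Of the 213 genes of the wild-type dsDNA side, 212 had the same sign and 182 were past 2-fold (85.4% of the wild-type list and 46.5% of the MyD88KO list), with a median difference of 1.90 against 1.38 in WT cells. The interferon-related lists followed, with medians of 1.93 for antiviral effectors and 2.93 for GTPases. Across 14196 genes the WT and MyD88KO differences correlated with Pearson's r at 0.66 and Spearman's rho at 0.38, a description over genes, which are not independent replicates. Between WT and SKO cells the values were -0.15 and 0.08 over 14232 genes.

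The LPS side was kept in part only, and it was chosen by the WT values, which can by itself lower the share kept elsewhere. Of its 57 genes, 37 had the same sign in MyD88KO cells and 11 were past 2-fold (19.3% of the wild-type list and 14.5% of the MyD88KO list), and in SKO cells 50 had the same sign and 7 were past 2-fold (12.3% and 10.8%). All of the 12 genes with the largest difference toward LPS read higher on the SKO mock array than on the WT mock array. Ccl20 read 8.05 against 5.64 there, and Prnd 10.12 against 7.46. With LPS, Ccl20 read 8.63 in SKO and 9.32 in WT cells, and Prnd 10.42 and 9.87. The part of this starting level in the SKO differences was not tested. Il1b read 3.68, 3.03 and 4.57 with mock, dsDNA and LPS in MyD88KO cells and 5.22, 4.86 and 8.36 in SKO cells, so that the LPS array was the brightest in each genotype and far brighter where MyD88 was present. Il1a followed, at 3.54, 2.96 and 4.26 in MyD88KO cells and 5.31, 5.61 and 7.69 in SKO cells. Clec4e differed by -2.83 in MyD88KO and -2.06 in SKO cells, more than 4-fold in each. Of the genes below mock with dsDNA, Edn1 differed by -1.50, Trib2 by -2.55, Jag1 by -1.93 and Adm by -1.26 in MyD88KO cells, and Trib2 by 0.18 and Jag1 by -0.06 in SKO cells. Edn1 differed by -0.72 in SKO cells.

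For 3 genes of the LPS side the difference had the opposite sign in MyD88KO cells, past 2-fold in each direction. The chemokine gene Ccl3 read 5.53, 9.05 and 10.97 with mock, dsDNA and LPS in WT cells and 5.03, 8.64 and 6.61 in MyD88KO cells. The epithelial cytokine gene Tslp read 6.14, 7.72 and 9.11 in WT and 5.88, 8.07 and 6.33 in MyD88KO cells, and Mmp13 5.52, 7.48 and 6.21 in MyD88KO cells. The dsDNA arrays of both genotypes were above mock for all 3, and the LPS array was lower in MyD88KO than in WT cells. In SKO cells all 3 were higher on the mock array than in WT cells (9.57 for Ccl3, 7.87 for Tslp and 8.34 for Mmp13).

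**Figure D4:**
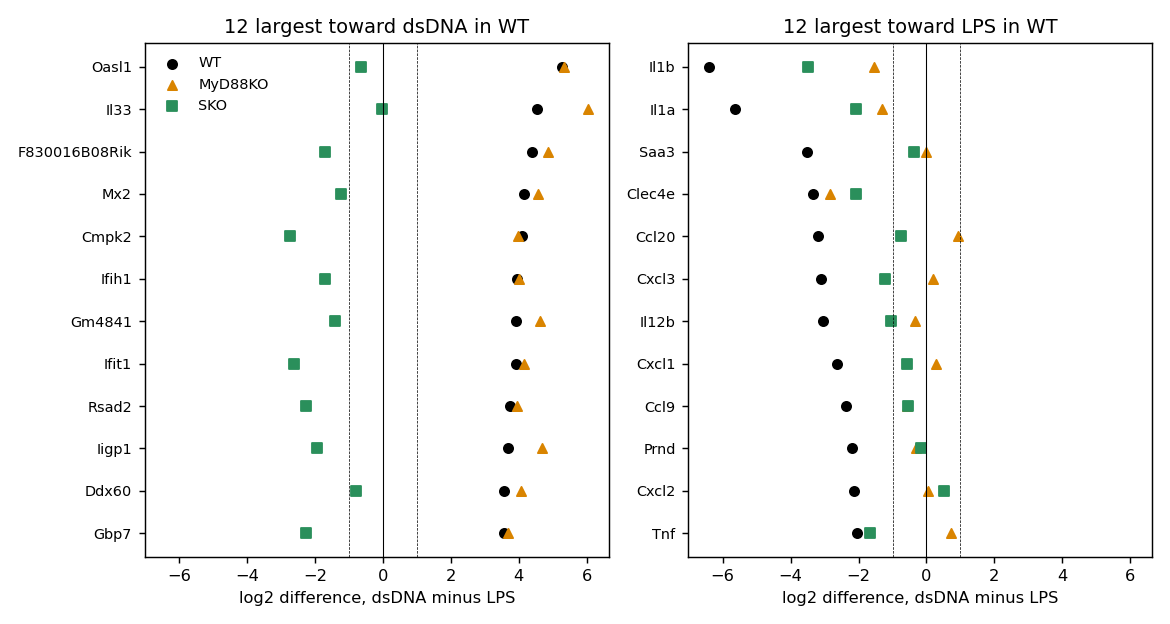
Log2 difference, dsDNA minus LPS (horizontal axis), in WT (black circles), MyD88KO (orange triangles) and SKO cells (green squares), 1 pair of arrays each, for the 12 genes with the largest wild-type difference toward dsDNA (left) and toward LPS (right); dashed lines mark 2-fold. On the left MyD88KO lies beside WT or beyond it and SKO left of 0, and on the right both knockouts lie nearer to 0 than WT for all 12 genes, Ccl20 for example at -3.20 in WT, 0.92 in MyD88KO and -0.74 in SKO cells. The genes were ranked by the WT values shown, so that a smaller difference in other arrays cannot be told apart from the effect of that choice.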

How the data were processed

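Gene expression was measured by Affymetrix array in 9 samples, 1 for each genotype and treatment, from 300 ng of total RNA each per the labels' protocols. The deposited values are log2 signals per probe set, which the authors made with Affymetrix Expression Console 1.3.1.187 per the submitters' processing notes; how they were background-corrected, normalised and summarised is not stated there. No depth applies to arrays, and their number limits the precision. With 1 array for each genotype and treatment, the residual of the model is how far the genotypes that share a response differ in it. The p-values rest on that misfit and measure no spread between replicate cultures or animals.

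Of 41345 probe sets, 23521 had 1 gene symbol (23328 matched RefSeq), 1814 several and 16010 none; the last kinds were left out. The 22180 genes were filtered and compared as the report states. limma 3.58.1 in R 4.3.3 was used with lmFit, eBayes with intensity trend and Benjamini-Hochberg adjustment. It fitted genotype, a dsDNA response shared by WT and MyD88KO, that of SKO, an LPS response shared by WT and SKO, and that of MyD88KO. The genes fitted reached the overall median of the table on at least 1 array. The procedure was checked on simulated data in which the genotypes that share a response had the same response. That check does not cover data where they differ. Every adjusted p quoted is from limma. The members and lists were chosen with earlier results of these data known. Named were the 12 genes with the largest difference on each side, in each list the 3 with the largest difference and the 2 brightest with a difference under 0.5, targeted and receptor genes, chosen cytokine genes, and genes opposite past 2-fold between genotypes; the others were named after their values were seen. The result of 1 list is not reported here. Ddx58 entered its list under the name in the table after the values were seen. Alternatives were the filters, the mean of probe sets, quantile normalisation, an offset of 32 on the linear scale, other limma settings and each array left out.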

Additional observations from a re-analysis of the deposited data

Results flagged for a closer look

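None of the differences between genotypes given here was tested, since each rests on 1 pair of arrays per genotype. For 3 genes of the LPS side the dsDNA minus LPS difference was past 2-fold in the opposite direction in MyD88KO cells: Ccl3 was 2.02 there against -1.92 in WT cells, Mmp13 1.27 against -1.10, and Tslp 1.74 against -1.39. Between WT and SKO cells 50 genes were past 2-fold in opposite directions, all of them toward dsDNA in WT cells. They included 9 of the 12 genes with the largest wild-type difference toward dsDNA. The SKO difference was -2.75 for Cmpk2, -1.72 for F830016B08Rik, -2.28 for Gbp7, -1.40 for Gm4841, -1.72 for Ifih1, -2.62 for Ifit1, -1.96 for Iigp1, -1.25 for Mx2 and -2.27 for Rsad2. The median SKO difference was -1.12 for the interferon-inducible GTPases (1.45 in WT cells) and -1.15 for the PARP and TRIM genes (1.52 in WT cells).

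Some probe sets outside the comparison were also past 2-fold. Of 1068 bright enough probe sets with several symbols, 25 were at least 2-fold higher with dsDNA and 2 higher with LPS. Of 5848 with no symbol, 118 were higher with dsDNA and 133 higher with LPS. This was a more even split than among the genes kept, where 213 of 13842 (1.54%) were higher with dsDNA and 57 (0.412%) with LPS. How many of these differences are noise between 2 single arrays was not tested, for the genes kept or for these probe sets.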

How the results depend on the processing

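With 1 array on each side the wild-type counts could change only with the processing. No filter, a stricter filter, the mean of probe sets and quantile normalisation kept the count of the dsDNA side between 166 and 221 and that of the LPS side between 42 and 65; the offset of 32, which shrinks differences of dim genes by construction, gave 122 and 27. Of 87 list medians under 3 alternatives, 78 moved by less than 0.16, the robust SD of the wild-type differences, and 0 of those past 2-fold changed sign. Under the offset the medians became 1.12 for antiviral effectors, 0.36 for nucleic acid sensing, 0.23 for STAT and IRF factors, 0.79 for PARP and TRIM genes, 0.12 for Schlafen genes, 0.47 for MHC class I genes and -0.14 for metalloproteases. With the mean of probe sets they became 1.23 for PARP and TRIM genes and -0.53 for neutrophil and monocyte chemokines. Of 537 values of named genes under the same alternatives, 446 moved by less than 0.16, 91 by more, and 0 changed sign among those past 2-fold. Only 1082 of the 22180 genes had several probe sets, and the mean of probe sets cannot move the others. Many of the 446 were therefore fixed in advance, and an offset cannot reverse a sign. The limma counts toward dsDNA and LPS were 178 and 9 without the intensity trend, 231 and 30 without the filter, 393 and 118 with robust eBayes, 397 and 147 after quantile normalisation, and 168 and 25 on the 4 dsDNA and LPS arrays of WT and MyD88KO cells. Leaving out each array gave 0 to 368 and 0 to 86. The SKO dsDNA and MyD88KO LPS arrays each had their own term in the model, so leaving out either could not change the estimates. Why the counts moved in the other settings was not tested. No paired analysis was possible because each group has 1 array, all with the same replicate number.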

Other observations

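Some genes of the dsDNA side that belong to no list were singled out after their values were seen, for LPS near mock; they are no fixed group, and like genes were not counted. The T-box gene Tbx2 read 5.82 with mock, 7.38 with dsDNA and 5.70 with LPS, and Tbx20 6.45, 7.69 and 6.31. The homeobox genes Hoxc12 (5.51, 7.29 and 5.63), Hoxc13 (5.48, 6.88 and 5.52) and Six2 (5.48, 6.75 and 5.31) followed the same order, as did Lef1, a partner of beta-catenin (7.005, 8.54 and 7.11), and the nuclear receptor gene Rorb (4.85, 6.58 and 4.57). The retinoic acid-degrading enzymes Cyp26a1 and Cyp26c1, which lie side by side, differed by 1.37 and 1.10. The difference in SKO cells was 0.28 for Tbx2, 0.28 for Tbx20, 0.24 for Hoxc12, 0.47 for Hoxc13, 0.07 for Six2, 0.00 for Lef1 and -0.07 for Rorb, and in MyD88KO cells 0.64, 0.60, 1.68, 1.25, 0.90, 1.02 and 2.78 in the same order of genes.

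Genes of a side often lay next to each other. In the RefSeq order of the genes kept, 71 of the 213 genes of the dsDNA side (33.3%) had an adjacent gene on that side, against 338 of 13615 other genes (2.48%), and 13 of the 57 genes of the LPS side (22.8%) against 97 of 13771 (0.704%). The longest dsDNA run held 5 genes, Gm4951, Gm4841, F830016B08Rik, Iigp1 and BC023105, and another held Ifit1bl1, Ifit3b, Ifit1bl2 and Ifit1. Runs of the LPS side were Il1a with Il1b, Cxcl3 with Cxcl1 and Cxcl2, Sele with Selp, Ccl9 with Ccl3, Clec4d with Clec4e, and Mmp3 with Mmp10. Many of these neighbours are copies of one gene family, whose probes can read one another, and some are not, such as Rsad2 with Cmpk2 and Oxr1 with Angpt1; the part of cross-reading was not tested.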
